A study of Mus musculus with 36 samples.

Results

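The Tcf/Lef quadruple knockout (QKO) was compared with its GFP sgRNA control in nephron progenitor cells (NPCs) kept in low CHIR. The 5 libraries were taken by their labels, 2 of QKO cells (replicates 1 and 3) and 3 of control cells (replicates 1 to 3), out of 36 RNA-seq libraries in the series. A QKO replicate 2 in low CHIR was not analysed here. All 5 came from primary NPCs of mouse embryonic kidney carrying Cas9-eGFP, grown in nephron progenitor expansion medium. CHIR99021, an inhibitor of the kinase Gsk3 that stabilises β-catenin, was present at 1.25 µM in both groups, the dose the study calls low and uses for self-renewal. High CHIR, 5 µM, drives the cells toward induction. QKO cells received a mixture of sgRNAs against Tcf7l1, Tcf7l2, Tcf7 and Lef1, and control cells an sgRNA against GFP. Both received mCherry mRNA, and mCherry+ cells were sorted, so that the sort marks transfection and not editing. The knockout period was 48 h. Each library therefore holds a mixture of edited alleles from several animals' kidneys, not a clone. Endothelial, stromal, erythroid and epithelial cells had been depleted with antibodies before culture.

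Tcf7l1, Tcf7l2, Tcf7 and Lef1 are the DNA-binding proteins through which β-catenin reaches its target genes. Without β-catenin they sit on the same sites with Groucho/Tle co-repressors and can hold those genes down. Tcf7l1 is known mostly as a repressor, Lef1 and Tcf7 mostly as activators, and Tcf7l2 as either. In the kidney, a weak canonical Wnt signal has been linked to the upkeep and expansion of NPCs, and a strong one starts their transition into renal vesicle epithelium. The study itself concludes that β-catenin promotes NPC proliferation but does not maintain NPC identity. The comparison in low CHIR asks what these factors do in self-renewing cells, where the strong signal is absent.

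Each targeted gene received 1 guide. The target sites are shown because they fix what the knockout can be and what gene counts can say about it. They are read 5′ to 3′ on the strand the guide matches, with the 20 bases of the guide in lower case and the NGG motif that Cas9 requires next to it in capitals.
Tcf7l1: cttaaaaaaagcgccatcctGGG
Tcf7l2: ttagcggccaagaggcaagaTGG
Tcf7: agctgggggacgccatgtggAGG
Lef1: ctcccaggaaagcatccagaCGG

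In GRCm38 with the GENCODE vM21 annotation, all of these sites lay at exon 3 of the coding transcript used here to count codons, and exon numbers differ in some other transcripts. The Tcf7l1 site (chr6:72788307-72788326, on the strand opposite to the gene) cut at codon 108 of 599, after 17.9% of the coding sequence, and was present in all 3 coding transcripts. The Tcf7 site (chr11:52261584-52261603, also opposite to the gene) cut at codon 40 of 303, after 13.1% of the coding sequence, in both coding transcripts. The Tcf7l2 site (chr19:55743069-55743088, on the gene's strand) began with 4 bases of the preceding intron and had its last 16 bases in the exon. It cut at codon 90 of 606, after 14.7% of the coding sequence, in 9 of 12 coding transcripts. The Lef1 site (chr3:131115406-131115425, on the gene's strand) had its last 13 bases and the NGG motif at the start of exon 3. Its first 7 bases lie before the exon and were not compared with a genome. The cut fell at codon 95 of 397, after 23.8% of the coding sequence, in all 4 coding transcripts. A small insertion or deletion at such a site can leave a transcript that still yields reads over the rest of the gene. A gene count at the control level therefore does not show that the protein was intact. From immunostaining after single guides, the study reports loss of most Tcf7l1, Tcf7l2 and Lef1 protein, and a smaller loss of Tcf7.

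Values below are normalized counts, which are reads on a gene divided by a size factor for the library. Fold changes are QKO against control on the scale of log2(normalized count + 1). A gene was called when its adjusted p was below 0.05 and its log2 fold change at least 0.5 in either direction. The 5 libraries held between 13089780 and 19717536 reads on genes. Of 26472 genes in the table, 15878 had a mean of at least 10 normalized counts and were tested. Nephron progenitor markers were high in every library. Summed over 17 genes, they reached 36320, 37810 and 31700 in control replicates 1, 2 and 3, and 30840 and 34830 in QKO replicates 1 and 3. Both replicate 1 libraries stood apart in markers of kidney stroma, whose summed count over 12 genes was 11360 in control replicate 1 and 18850 in QKO replicate 1, against 4458 to 5694 in the other 3 libraries. Col1a1, a fibrillar collagen chain, was at 4185, 955.3 and 127.9 in control replicates 1, 2 and 3 and at 7525 and 436.9 in QKO replicates 1 and 3. Libraries of replicates 1 and 3 differed at more genes than QKO and control did within a replicate. Between replicates 1 and 3, 2545 genes differed more than 1 on the log2 scale in control cells and 1754 in QKO cells. Only 653 did so in both groups with the same sign, so much of this difference was not shared by replicate number. Between QKO and control, 1642 genes differed by that much within replicate 1 and 1207 within replicate 3. Results are therefore given without and with replicate number as a block.

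Of the targeted genes, Tcf7l1 and Tcf7 had lower counts in both QKO libraries than in any control, and Tcf7l2 and Lef1 overlapped between the groups. None of the 4 was called in the fit across all genes. How many of all genes tested had groups that did not overlap was not counted, so the separation of Tcf7l1 and Tcf7 has no base rate beside it. Tcf7l1 was at 2225, 1774 and 1736 normalized counts in control replicates 1, 2 and 3 and at 827.2 and 1286 in QKO replicates 1 and 3, so the groups did not overlap. Its means were 1910 ± 272 (SD, n = 3) and 1060 ± 325 (SD, n = 2), its log2 fold change was -0.88 ± 0.213 (SE), and the adjusted p was 0.82 without the block and 0.16 with it in limma. DESeq2 called it lower (adjusted p = 0.0448). Tcf7 was at 220.1, 220.1 and 140.9 in control cells and at 66.22 and 97.73 in QKO cells, again without overlap. Its log2 fold change was -1.23 ± 0.351 (limma adjusted p = 0.904, and 0.4 with the block).

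Tcf7l2 was at 1622, 1949 and 1873 in control cells and at 1575 and 1695 in QKO cells, and the groups overlapped. Lef1 was low in every library, at 119.9, 25.66 and 19.88 in control cells and 87.13 and 21.5 in QKO cells, with both of its higher values in replicate 1. The sign of its fold change (0.13 in log2) turned under several settings, so no direction is given. In high CHIR, where control cells held 1800 normalized counts of Lef1 on average, QKO cells held 403, a log2 fold change of -2.12 (limma adjusted p = 0.131, and 0.0476 with the block). Tcf7 in high CHIR was called lower (log2 fold change -1.64, limma adjusted p = 0.0175). Tcf7l1 in high CHIR was at 563 in control and 626 in QKO cells on average. That control level was itself below both QKO libraries in low CHIR. Tcf7l1 overlaps Gm15401 and Lef1 overlaps Gm43352 on the other strand, and the libraries were not stranded.

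**Figure D1:**
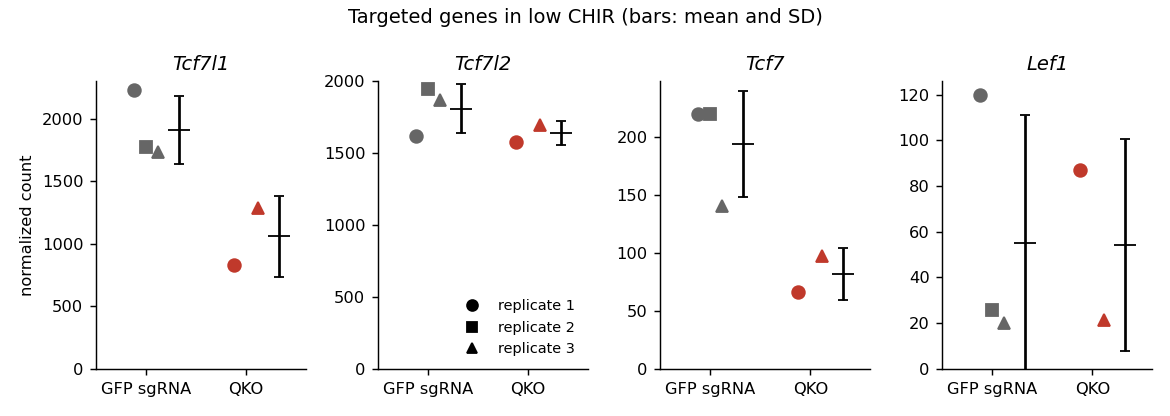
Normalized counts of the 4 targeted genes in low CHIR, on linear axes from 0, with grey points for GFP sgRNA libraries, red points for QKO libraries, the symbol giving the replicate number, and bars for mean and SD. Tcf7l1 and Tcf7 are lower in both QKO libraries than in all 3 controls, while Tcf7l2 and Lef1 overlap. The SD bar of Lef1 in control cells reaches below the axis.

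Cnmd, which encodes chondromodulin, an inhibitor of blood vessel growth best known from cartilage, had the smallest adjusted p of all genes in low CHIR and was higher in QKO cells. It was at 228.7, 187.5 and 179.8 normalized counts in control replicates 1, 2 and 3 and at 1128 and 926.5 in QKO replicates 1 and 3. The lowest QKO value lay far above the highest control value. The means were 199 ± 26.3 (SD, n = 3) and 1030 ± 143 (SD, n = 2), and the log2 fold change was 2.37 ± 0.201 (SE; limma adjusted p = 0.00116, and 0.00316 with the block). Cnmd (chr14:79637690-79662170, GRCm38) was the only gene called without the block, in 1 of 15878 tests (0.0063% called higher, and 0% called lower), where edgeR also called 1 gene higher, DESeq2 called 23 higher and 2 lower, and an unadjusted p below 0.05 was reached by 438 higher genes (2.76%) and 268 lower genes (1.69%). Limma, edgeR and DESeq2 were each run without and with the block, and Cnmd was called by all 6 of these tests. Fitted on the 5 low CHIR libraries alone, its adjusted p in limma was 0.0776, and without QKO replicate 1 it was 0.0564.

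With replicate number as a block, 15 genes were called higher in QKO cells (0.0945% of those tested) and 1 lower (0.0063%). Same-numbered libraries deviated from their group means together, and this fit takes out the shift that a number shares over all 11 libraries. Control replicate 2 and the high CHIR libraries therefore also shape its estimates in low CHIR. The blocked fit favours genes whose replicates changed alike, and most of the genes it alone called were named only if their groups did not overlap. Neither trait is therefore separate support for them. The calls depended on single libraries. The blocked fit called 3 genes without control replicate 2, 3 without QKO replicate 1, 11 without QKO replicate 3, 18 without control replicate 1 and 25 without control replicate 3. Cnmd, Adora1 and Lhfpl2 were called in all 5 of these fits, and edgeR with the block called the same 3 together with Cldn9.

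Adora1 encodes an adenosine receptor coupled to inhibitory G proteins. It was at 31.8, 47.37 and 61.38 in control replicates 1, 2 and 3 and at 178.9 and 319.6 in QKO replicates 1 and 3. Its log2 fold change was 2.42 ± 0.231 (SE) in the blocked fit (limma adjusted p = 0.00341, and 0.0846 without the block). Adora1 (chr1:134199223-134235431) overlaps Mybph on the other strand, and since the libraries were not stranded, reads of the pair cannot be told apart where they overlap.

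Lhfpl2 encodes a membrane protein of the Lhfpl family. It was at 139.4, 77.97 and 73.48 in control cells and at 484.5 and 388 in QKO cells. Its log2 fold change was 2.07 ± 0.205 with the block (limma adjusted p = 0.00341) and 2.21 ± 0.316 without it (adjusted p = 0.0846). Over the 5 blocked fits that left out 1 library each, its log2 fold change ran from 1.89 to 2.22, that of Adora1 from 2.31 to 2.53 and that of Cnmd from 2.21 to 2.53.

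The other genes called with the block have varied known roles. Dll1, a Notch ligand that appears in differentiating nephron precursors, was at 6.115, 15.79 and 19.02 in control cells and at 37.18 and 73.3 in QKO cells. These values were low, and the blocked log2 fold change was 2.27 ± 0.286 (limma adjusted p = 0.0178). Dll1 overlaps A930024N18Rik on the other strand. Gfra2, a co-receptor for neurturin that signals with Ret, was at 229.9, 60.2 and 82.99 in control cells and at 685.4 and 275.6 in QKO cells (blocked log2 fold change 1.85 ± 0.283, adjusted p = 0.0472 in limma). Its groups did not overlap, although replicate 1 was the higher library in each. Dab1, an adaptor that relays reelin signals, was at 30.58, 31.58 and 53.6 in control cells and at 95.26 and 166.1 in QKO cells (blocked log2 fold change 1.67 ± 0.231, limma adjusted p = 0.0273).

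Serpine2, a secreted serine protease inhibitor, was at 3124, 2313 and 3355 in control cells and at 11350 and 6207 in QKO cells. It had the highest counts of the genes called, and its blocked log2 fold change was 1.42 ± 0.197 (limma adjusted p = 0.0273). Lamb1, a laminin beta chain of basement membranes, was at 1326, 1056 and 1230 in control cells and at 3615 and 2964 in QKO cells. Control libraries were close to each other here, and the blocked log2 fold change was 1.42 ± 0.212 (limma adjusted p = 0.0471). Car12, a membrane-bound carbonic anhydrase, was at 287.4, 247.7 and 146.1 in control cells and at 884.1 and 508.2 in QKO cells (blocked log2 fold change 1.64 ± 0.216, limma adjusted p = 0.0237).

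Bhlhe40, a transcriptional repressor of the circadian and stress responses, was at 500.2, 383.9 and 257.6 in control cells and at 1077 and 654.8 in QKO cells (blocked log2 fold change 1.25 ± 0.168, limma adjusted p = 0.0246). Trim2, a ubiquitin ligase, was at 889.1, 1083 and 1423 in control cells and at 2050 and 2442 in QKO cells (blocked log2 fold change 1.00 ± 0.12, limma adjusted p = 0.0145). Neither gene had overlapping groups, which is not separate support for these calls. Tmem150c, a membrane protein linked to mechanically gated currents, was at 155.3, 212.2 and 80.4 in control cells and at 504.2 and 399.7 in QKO cells (blocked log2 fold change 2.07 ± 0.318). The unnamed transcript 2610028E06Rik was at 42.81, 20.73 and 33.72 in control cells and at 188.2 and 127.1 in QKO cells (blocked log2 fold change 2.07 ± 0.318). The limma adjusted p with the block was 0.0472 for each of this pair. Bhlhe40 and Tmem150c each overlap a gene on the other strand.

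Tspan7, a tetraspanin of the cell surface, was the 1 gene called lower. It was at 2009, 1796 and 2668 in control cells and at 860.9 and 1515 in QKO cells (blocked log2 fold change -0.98 ± 0.153, limma adjusted p = 0.048). Cldn9 and Ddr2 were also called with the block, although their groups overlap. They are named here after their values were seen. Cldn9, a tight junction claudin, was at 220.1, 369.1 and 651 in control cells and at 554.2 and 1457 in QKO cells. Ddr2, a collagen receptor kinase of mesenchymal cells, was at 249.5, 61.19 and 11.24 in control cells and at 600.6 and 43.98 in QKO cells, the same order of libraries as for Col1a1. Its blocked log2 fold change was 1.53 ± 0.238 (limma adjusted p = 0.048), and it was called in none of the 5 blocked fits that left out a library. Ddr2 also overlaps 3110045C21Rik on the other strand. In bulk RNA, more cells of a type and more RNA per cell cannot be told apart, and the part of stromal cells in the value of Ddr2 was not tested.

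**Figure D2:**
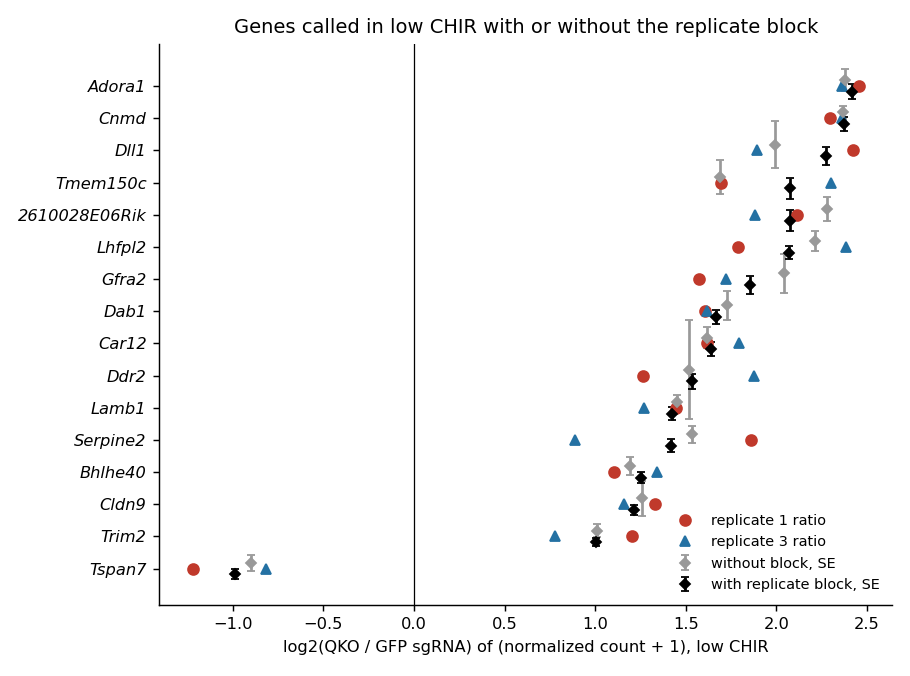
Log2 ratios of QKO to GFP sgRNA control in low CHIR for the 16 genes called without or with the replicate block, with red circles for replicate 1, blue triangles for replicate 3, grey diamonds for the fold change without the block and black diamonds for that with the block (bars: SE). The points of the pair of replicates lie on the same side of 0 for each gene, a trait that the blocked fit selects for. The grey bars of Ddr2, Dll1 and Gfra2 are the longest.

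The promoters of the called genes were searched for CTTTGAT, the core letters that Tcf/Lef proteins bind, on both strands from 250 bases before to 50 bases after each start in RefSeq (GRCm38.p6). Of the 16 genes, 13 had an entry, with 22 promoters, and 0 of these held the motif. Over all promoters of that table, 1225 of 32851 (3.73%) held it. The window covers only the start site, and distant sites were not searched.

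The genes called higher were next read in cells whose Tcf/Lef genes were intact, by CHIR dose. In separate cultures of wild-type NPCs, which share no library with the QKO comparison and were normalized apart from it, 10 of the 15 genes called higher had a higher mean in high CHIR than in low CHIR (50.2% of the tested genes found in that table), and 13 had a higher mean in low CHIR than in medium without CHIR (49.7%). Trim2 in wild-type cells was at 266 ± 75.4 without CHIR, 1550 ± 395 in low CHIR and 3660 ± 709 in high CHIR (SD, n = 3 each). Lamb1 was at 1600, 2300 and 4420 on average at the same doses, and Lhfpl2 at 175, 260 and 1320. Cnmd did not follow the dose, with wild-type means of 111, 188 and 139, and neither did Gfra2, with 37.6, 314 and 21.5. These are means set side by side, with no test across tables.

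In the GFP sgRNA control cells, 12 of the 15 genes had a higher mean in high CHIR than in low CHIR (50.5% of all genes tested). These controls are shared with the QKO comparison, so the values are given without a test. Lhfpl2 averaged 97 in low and 1940 in high CHIR in control cells, against 436 in QKO cells in low CHIR. Trim2 averaged 1130 and 4400, against 2250. Dab1 averaged 38.6 and 462, against 131. Cnmd, Serpine2, Car12 and Gfra2 were among those with a higher mean in QKO cells in low CHIR than in control cells in high CHIR. The 15 were called for high values in these QKO libraries, and the share of such genes over all genes was not counted. The Cnmd mean was 1030 in QKO cells in low CHIR, 513 in control cells in high CHIR and 1330 in QKO cells in high CHIR.

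The QKO libraries in high CHIR (3 QKO and 3 control libraries, none shared with low CHIR) gave many more calls, 326 higher (2.05% of genes tested) and 78 lower (0.491%). Each fit took all 11 libraries, so both doses share an estimate of the spread and, with the block, the shift of each replicate number. Calls of the 16 genes in high CHIR are therefore not independent of those in low CHIR. Of the 16 genes, 5 (Cnmd, Adora1, Serpine2, Car12 and Gfra2) were called higher in high CHIR as well. With the block, high CHIR gave 841 genes called higher (5.3%) and 340 lower (2.14%), and of the 16 genes 9 were then higher, with Ddr2, Tmem150c, Bhlhe40 and Dll1 added, and Lhfpl2 was lower (log2 fold change -0.66, limma adjusted p = 0.0457). Gfra2 was at 52.74, 22.25 and 15.95 in control and at 690.1, 464.3 and 376 in QKO cells in high CHIR, a log2 fold change of 4.16 ± 0.542 (SE, limma adjusted p = 0.00224). Adora1 rose from a high CHIR control mean of 339 to 1420 (log2 fold change 2.06, adjusted p = 0.00371). Car12 rose from 115 to 663 (log2 fold change 2.49, adjusted p = 0.00119).

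The difference between the QKO effects in low and high CHIR was tested directly as an interaction. Its positive calls, where the effect in low CHIR was the higher, numbered 3 (0.0189% of genes tested), and its negative calls 17 (0.107%). With the block these counts were 38 (0.239%) and 98 (0.617%). Lhfpl2 was among the 3. In high CHIR it was at 2677, 1269 and 1873 in control and at 1313, 1130 and 1090 in QKO cells, a log2 fold change of -0.66. The effect in low CHIR minus that in high CHIR was 2.87 ± 0.424 (SE, limma adjusted p = 0.0308, and 0.00265 with the block). With the block the interaction was also called for Cldn9 (1.46, limma adjusted p = 0.00819), whose fold change was 1.26 in low and -0.25 in high CHIR, and for Gfra2 (-2.31, adjusted p = 0.021), whose effect was the higher in high CHIR.

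**Figure D3:**
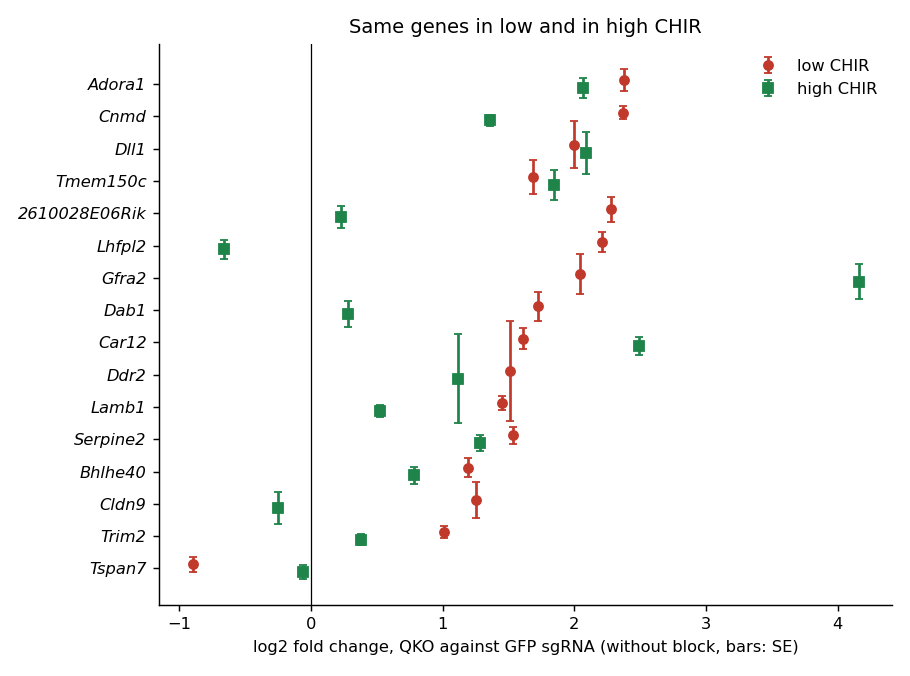
Log2 fold change of QKO against GFP sgRNA control in low CHIR (red circles) and high CHIR (green squares) without the replicate block, with SE bars, for the genes called in low CHIR. Adora1, Dll1 and Tmem150c lie close together at both doses, Gfra2 and Car12 are further from 0 in high CHIR, and Lhfpl2 (2.21 in low, -0.66 in high CHIR) and Cldn9 (1.26 and -0.25) have opposite signs at the 2 doses.

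Genes of NPC identity were not called by limma when Tcf/Lef factors were targeted in low CHIR, without or with the block. Of 17 genes, 1 was higher at an unadjusted p below 0.05 and 0 lower, and 4 had a positive fold change (8816 of the 15878 tested). The median log2 fold change was -0.09 without the block and -0.22 with it, against 0.04 and 0.03 over all genes tested. DESeq2 with the block, which called 78 genes higher (0.533% of those with an adjusted p) and 12 lower (0.0819%), called 1 of the 17, Amph, higher. Cited1, a transcriptional co-regulator of the most naive progenitors, was at 5775, 6182 and 4179 in control cells and at 3836 and 6510 in QKO cells. Tmem100, a membrane protein of uncommitted NPCs, was at 1701, 1825 and 1616 against 1714 and 1663. The QKO values of Cited1 lay on each side of the control range and those of Tmem100 within it.

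Six2, the transcription factor required to keep NPCs from differentiating, was at 3148, 2502 and 1206 in control cells and at 1162 and 1464 in QKO cells. Its log2 fold change was -0.70 (limma adjusted p = 0.904), and control replicate 3 lay between the QKO values. Without that library the blocked fit in limma called Six2 lower (log2 fold change -1.40, adjusted p = 0.0318), and in the fit without the block 3 NPC identity genes were then lower and 0 higher at an unadjusted p below 0.05. Without control replicate 1 it was the reverse, 0 lower and 3 higher. Amph, an endocytic adaptor, was the gene at an unadjusted p below 0.05, at 958.8, 1036 and 769.4 in control and 1602 and 1312 in QKO cells (log2 fold change 0.66, limma adjusted p = 0.904, and 0.0139 in DESeq2 with the block).

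In high CHIR, 8 of the same 17 genes were called higher in QKO than in control cells (2.05% of all genes tested). The median log2 fold change of the 17 was 1.34, and the difference between doses passed the test for 2 (0.107% of all genes). With the block, 10 were called higher (5.3%) and 2 lower (2.14%) in high CHIR. The difference between doses then passed for 6 (Cited1, Crym, Meox2, Osr1, Six2 and Tmem100), against 0.617% of all genes. In each the effect was the lower in low CHIR. Meox2, a homeobox factor, was at 2030, 2485 and 2385 in control and 1621 and 2141 in QKO cells in low CHIR, and averaged 114 in control and 613 in QKO cells in high CHIR. The difference between its effects was -2.86 ± 0.453 (SE, limma adjusted p = 0.0424). For Tmem100, which averaged 93.7 in control and 880 in QKO cells in high CHIR, it was -3.06 ± 0.494 (limma adjusted p = 0.0444). Both genes were high in every low CHIR library and overlapped between the groups there.

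Induction genes, which mark the exit from the progenitor state, were not called by limma in low CHIR, without or with the block. Of 23 genes, 3 were higher and 1 lower at an unadjusted p below 0.05 (2.76% and 1.69% of all genes tested). The median log2 fold change was 0.09. Of the 23, 4 (Fgf8, Lhx1, Emx2 and Msx1) averaged under 10 normalized counts in low CHIR and passed the filter through high CHIR, so they could hardly show a fall. The other 19 had the same counts and median. Wnt4, the ligand that drives the mesenchymal-to-epithelial transition, was at 24.46, 22.7 and 31.12 in control and at 68.54 and 40.07 in QKO cells (log2 fold change 0.99 ± 0.357, limma adjusted p = 0.904). Both QKO values exceeded the controls, but control cells in high CHIR averaged 3630. Ccnd2, a cyclin of the G1 phase, was at 4864, 3055 and 1616 in control and at 10170 and 5131 in QKO cells (log2 fold change 1.32 ± 0.422, limma adjusted p = 0.904), and DESeq2 with the block called it higher (adjusted p = 0.000124). The remaining pair at an unadjusted p below 0.05 were the transcription factor Ovol1 (log2 fold change 1.26) and, lower, the BMP ligand Bmp2 (-1.04).

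Jag1, the Notch ligand of the induced renal vesicle, was at 124.7, 158.9 and 286.1 in control and at 140.6 and 221.9 in QKO cells in low CHIR, against a control mean of 12700 in high CHIR. Lhx1, a homeobox factor of the vesicle, was at 6.115, 16.78 and 9.51 in control and 3.485 and 13.68 in QKO cells, against 4380 in high CHIR. Neither gene approached its high CHIR level in any QKO library in low CHIR. In high CHIR the median log2 fold change of the 23 genes was -1.12. There, 1 was called higher and 4 lower (2.05% and 0.491% of all genes tested). With the block, 2 were called higher and 11 lower (5.3% and 2.14%).

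Feedback targets of the canonical pathway, which report its activity in many tissues, had values on both sides of 0. Of 20 genes 18 were tested, 0 were called by limma, edgeR or DESeq2, without or with the block, 1 was higher at an unadjusted p below 0.05, and the median log2 fold change was -0.03. Axin2, the scaffold of the β-catenin destruction complex and a common reporter, was at 83.16, 78.95 and 56.19 in control and at 68.54 and 112.4 in QKO cells. The groups overlapped. Tnfrsf19, a receptor of the TNF family, was at 162.7, 86.85 and 158.2 in control and at 357.8 and 219.9 in QKO cells (log2 fold change 1.09 ± 0.347, limma adjusted p = 0.904).

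Upstream and nuclear parts of the pathway had no called gene. Among 34 tested genes of the Wnt pathway core (receptors, destruction complex and co-factors, of 36 listed), 0 were called by limma, edgeR or DESeq2, without or with the block in low CHIR, 1 (Apc) was lower at an unadjusted p below 0.05, and the median log2 fold change was -0.23. Fzd4, a Wnt receptor, was at 1915, 1707 and 1375 in control and 1436 and 1272 in QKO cells in low CHIR, and in high CHIR at 269.5, 415.6 and 297.7 in control and 903.1, 988.8 and 1004 in QKO cells. Like Meox2, it was high in low CHIR and called higher in QKO cells in high CHIR, with a difference between effects of -1.87 ± 0.266 (SE, limma adjusted p = 0.0288). Of 27 Wnt ligands and secreted inhibitors only 9 had enough reads to be tested, 0 were called or passed an unadjusted p below 0.05, and the median log2 fold change was -0.17.

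Genes that respond to the loss of β-catenin itself in low CHIR were compared next. The series holds libraries in which β-catenin (Ctnnb1) was removed with Ctnnb1 sgRNAs in Cas9-eGFP cells or with Cre mRNA in cells carrying a floxed Ctnnb1 allele, 2 libraries a group. Both lists were drawn up from those libraries and hold a selection of genes, not every gene that changed. The list of genes that fell includes some that the study reports from its Cre set, such as Mycn, Btbd11 and C1qtnf12. Of 14 genes that fell on β-catenin removal, 4 were higher in QKO cells at an unadjusted p below 0.05 (Gfra2, Tnfrsf19, Trim2 and Vat1l, against 2.76% of all genes tested), 0 were lower, and 10 of 14 had a positive fold change (8816 of the 15878 tested), with a median of 0.31 in log2. With the block, Trim2 and Gfra2 were called higher (0.0945% of all genes) and 0 were called lower.

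Trim2 had a log2 fold change of 1.01 ± 0.192 (SE) in QKO cells without the block (limma adjusted p = 0.333, and 0.0145 with it), -1.09 after Ctnnb1 sgRNAs (limma adjusted p = 0.0564) and -1.42 after Cre (adjusted p = 0.0028). The log2 fold change of Gfra2 was 2.04 ± 0.606 in QKO cells without the block, -1.44 after Ctnnb1 sgRNAs (adjusted p = 0.362) and -2.15 after Cre (adjusted p = 0.00728). Both genes had opposite signs in the QKO and β-catenin experiments. These share no library and differ in knockout period, and the difference between them was not tested. Kif5c, a kinesin motor, had a log2 fold change of -0.43 in QKO cells (limma adjusted p = 0.904), on the same side as after β-catenin removal. Of 7 genes that rose on β-catenin removal 6 were tested, 0 were called or passed an unadjusted p below 0.05 in QKO cells, and the median log2 fold change was 0.30.

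**Figure D4:**
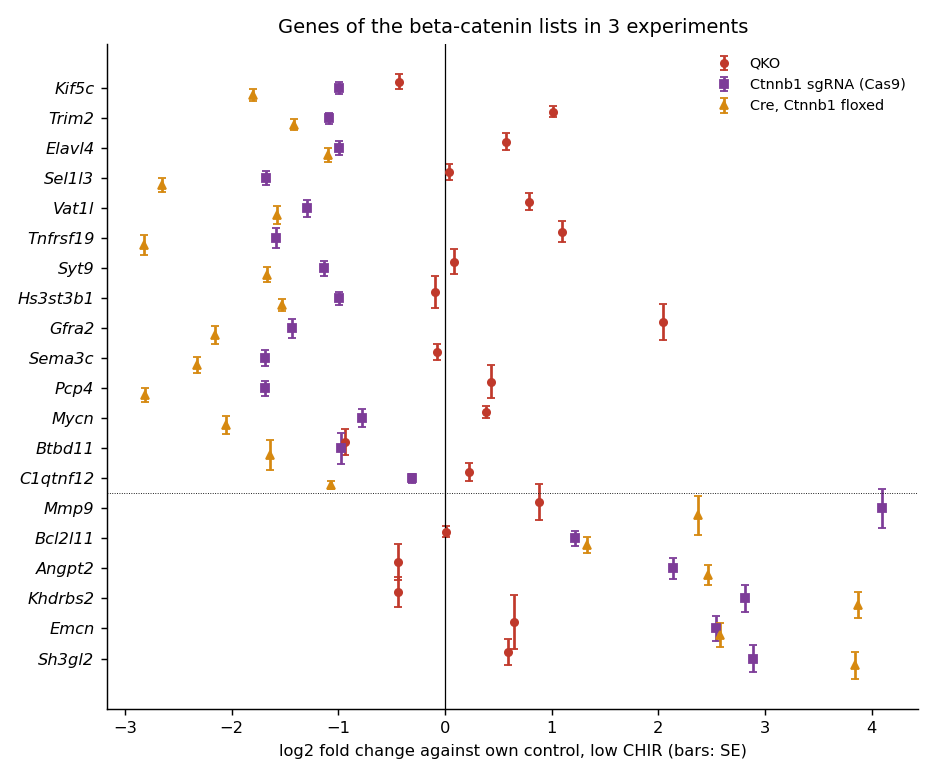
Log2 fold changes in low CHIR, each against its own control and with SE bars, for genes that fell (above the dotted line) or rose (below it) when β-catenin was removed, with red circles for QKO, purple squares for Ctnnb1 sgRNAs and orange triangles for Cre in floxed cells. The genes were chosen on the purple and orange values. Of the 14 red points above the line 10 are positive, among them Gfra2 at 2.04, Tnfrsf19 at 1.09, Trim2 at 1.01 and Vat1l at 0.79.

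Targets of p53, a transcription factor activated by DNA damage and other stresses, had mostly positive fold changes in QKO cells. Of 24 genes, 9 were higher and 0 lower at an unadjusted p below 0.05 (all genes tested: 2.76% higher), 23 had a positive fold change (8816 of the 15878 tested), and the median log2 fold change was 0.57, against 0.04 over all genes tested. Limma called 0 of the 24, without or with the block. DESeq2 with the block called 2 higher (0.533% of all genes with an adjusted p), Cdkn1a (adjusted p = 0.0181) and Perp (adjusted p = 0.0417). The summed normalized count of the list was 17110, 17060 and 33540 in control replicates 1, 2 and 3 and 29450 and 37850 in QKO replicates 1 and 3, so control replicate 3 lay between the QKO libraries. Cdkn1a, the cell cycle inhibitor p21, was at 1201, 1178 and 3442 in control and at 3758 and 5569 in QKO cells (log2 fold change 1.43 ± 0.37, limma adjusted p = 0.904). Perp, a p53 effector of the plasma membrane, was at 2.446, 5.922 and 3.458 in control and at 26.72 and 25.41 in QKO cells (log2 fold change 2.51 ± 0.498, limma adjusted p = 0.397, and 0.0678 with the block).

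The p53 count turned on single libraries. Without control replicate 3, 18 of the 24 passed an unadjusted p below 0.05 and 1 was called, and the blocked fit then called Cdkn1a, Ccng1 and Trp53inp1 higher. The count was 4 without control replicate 1, 5 without control replicate 2, 10 without QKO replicate 1 and 3 without QKO replicate 3. In high CHIR, 10 of the 24 were called higher (2.05% of all genes tested), or 15 with the block (5.3%). The median log2 fold change of the 24 was 0.95. Control cells received a single sgRNA and QKO cells a mixture against 4 genes, and the part of the number of cuts in these values cannot be told apart from that of the targeted genes.

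**Figure D5:**
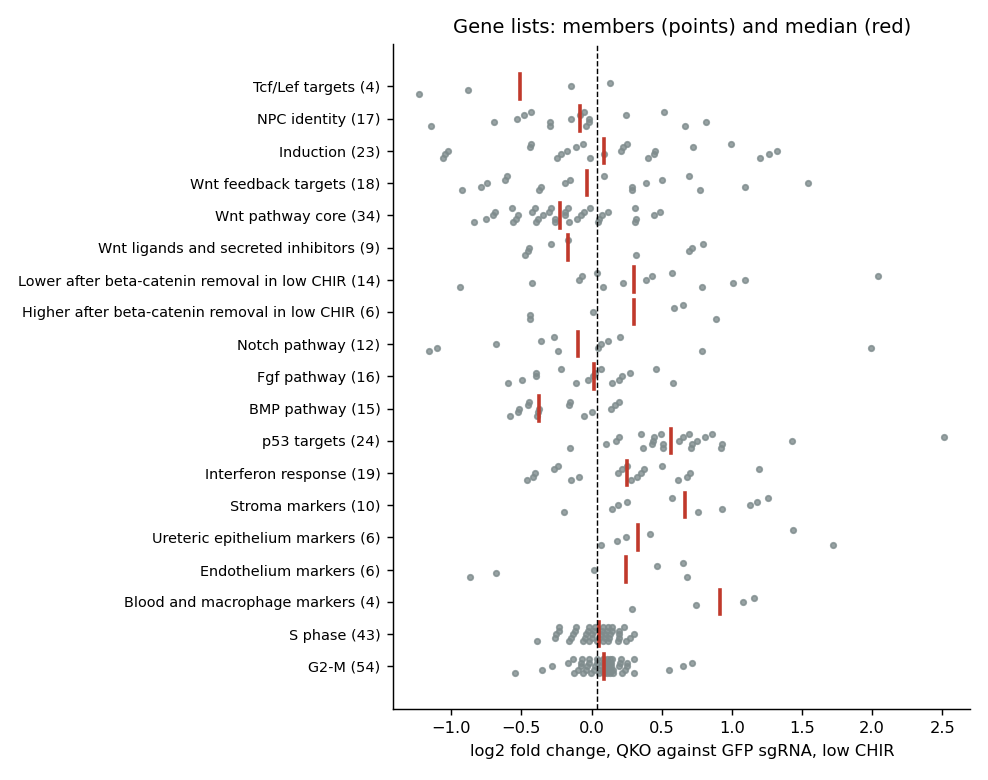
Log2 fold changes of QKO against GFP sgRNA control in low CHIR for the tested members of each gene list (grey points, number in brackets), with the list median in red and the median over all genes tested, 0.04, as a dashed line. The p53 targets lie mostly above the line (median 0.57), NPC identity genes on both sides (median -0.09), and the S phase and G2-M genes close to it.

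Among Notch pathway genes, 12 of 16 were tested and their median log2 fold change was -0.10. Dll1, described above, was called with the block, and at an unadjusted p below 0.05 Dll1 and the receptor Notch1 (log2 fold change 0.79) were higher and Heyl, a target of the pathway, lower (-1.10). Hes1, another target, was at 913.6, 985.9 and 508.3 in control and at 625 and 681.2 in QKO cells, with overlap. Fgf pathway genes (16 of 18 tested) had a median of 0.02, and BMP pathway genes (15 of 16 tested) a median of -0.37. In both lists 0 genes were called by limma, edgeR or DESeq2, without or with the block and 0 passed an unadjusted p below 0.05. Fgf9, a ligand that maintains NPCs, was at 2111, 2824 and 2893 in control and 2140 and 3001 in QKO cells, which span the same range.

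Cell cycle genes had medians near that of all genes. The 43 S phase genes had a median log2 fold change of 0.05 and the 54 G2-M genes one of 0.09, 0 were called by limma, edgeR or DESeq2, without or with the block, and Pcna, the polymerase clamp, was lower at an unadjusted p below 0.05 (log2 fold change -0.25). Interferon response genes (19 of 30 tested, median 0.25) had 0 calls and 0 at an unadjusted p below 0.05.

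Markers of other cell types were not called by limma, without or with the block. The 10 tested stroma markers (of 12) had a median log2 fold change of 0.67 with 0 at an unadjusted p below 0.05. DESeq2 with the block called 3 of them higher, against 0.533% of all genes with an adjusted p. These were Col1a1 (log2 fold change 1.19, adjusted p = 0.00052), Col3a1 (1.04, adjusted p = 0.0131) and Pdgfrb (1.16, adjusted p = 0.00579). The limma median was 1.68 without control replicate 1, -0.19 without control replicate 3, -1.19 without QKO replicate 1 and 2.88 without QKO replicate 3, so single libraries set its sign and size. Foxd1, which defines the cortical stroma, was at 11.01, 3.948 and 2.594 in control and at 13.94 and 1.955 in QKO cells. Of 12 ureteric epithelium markers 6 were tested (median 0.33, 0 called), Krt18 alone was higher at an unadjusted p below 0.05, and Ret and Calb1 stayed below 10 normalized counts in all 5 libraries. Of 10 endothelium markers 6 were tested (median 0.24) and of 12 blood and macrophage markers 4, with 0 at an unadjusted p below 0.05. In low CHIR 3 of these 6 and all 4 averaged under 10 normalized counts, and the macrophage gene C1qa was at 0 in all 5 libraries. The summed endothelium markers were nevertheless higher in both QKO libraries, at 1509 and 2331 against 939.7 to 1421 in control cells. Most of that sum was Plvap, at 1333, 1188 and 898.2 in control and 1414 and 2308 in QKO cells, whereas Kdr, the VEGF receptor of endothelial cells, was at 23.24, 12.83 and 6.916 in control and 3.485 and 0.9773 in QKO cells.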

How the data were processed

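RNA of sorted mCherry+ NPCs was made into cDNA with the SMARTer Ultra Low kit, which does not mark strand, and sequenced with paired reads of 150 bases. According to the study's methods and the submitters' processing notes, the authors aligned reads to combined mouse GRCm38 and human GRCh38 with STAR 2.5.1a1 and counted uniquely aligned reads per gene with featureCounts 1.4.6-p52. The deposited values used here are a signal per gene, read counts that the authors divided by DESeq2 size factors (normalized counts), 1 table for the 11 Tcf/Lef libraries and others for the β-catenin and wild-type libraries. Dividing each of the 11 columns by its smallest step gave whole reads for 100% of values (tolerance 0.01). Reads from 10 columns entered edgeR and DESeq2. Control replicate 2 in high CHIR, whose step of 1.011 is too close to 1 to claim recovery, was left out of those fits. Further deposited tables hold the authors' own DESeq2 log2 fold changes and p-values, which were not used, with 50 columns of per-sample values that were not used either.

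Groups were taken from the labels. Genes with a mean of at least 10 over the 11 libraries were tested across all genes with limma 3.58.1 (R 4.3.3) with a trend, on log2(normalized count + 1), with 4 group means, so that both QKO libraries shared a spread with the other groups. P-values were adjusted by Benjamini-Hochberg over all 15878 genes. They measure the spread between these libraries only, and with 3 against 2 libraries a single gene's exact permutation test by the absolute difference of means could not go below 0.1. The second fit added replicate number as a block. The numbers were taken to pair libraries because deviations from the group mean correlated between same-numbered libraries in every pair (Pearson r across genes 0.369 and 0.365 between control and QKO in low CHIR, and 0.249 to 0.637 over the other pairs of groups that share a dose or an sgRNA). The 2 QKO libraries in low CHIR deviate from their mean by equal and opposite amounts, so 0.369 and 0.365 are not separate checks. Control replicate 2 in low CHIR had no QKO partner.

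Alternatives were edgeR 4.0.16 (quasi-likelihood) and DESeq2 1.42.0 on recovered reads, TMM scaling, a pseudocount of 0.5, no filter, a mean over 5 libraries, the 5 libraries alone, a cut-off of 1 and leaving out each library. DESeq2 with the block, replicates 1 and 3 alone with the block, leaving out libraries in the blocked fit and for 4 lists, and lists without members averaging under 10 in low CHIR were chosen after seeing the data. Limma without and with the block, and edgeR and DESeq2 without it, were run on simulated data that held no replicate or CHIR effects. That check therefore says nothing about shifts shared by a replicate number. The genes and lists were chosen with earlier results of these data known. Named genes are the targeted genes, list members, genes called without the block, and of genes called only with it the 10 largest fold changes a direction with a mean of at least 50 and groups that do not overlap. S phase and G2-M lists are those of Seurat 5.3.0 as mouse symbols. Lists are described by counts and medians, with no set test. Guide sequences are from the study's supplement, gene and transcript positions from GENCODE vM21 and promoters from RefSeq.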

Additional observations from a re-analysis of the deposited data

Results flagged for a closer look

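The effect of QKO differed between low and high CHIR for 3 genes with the higher effect in low CHIR and 17 with the lower (limma interaction, adjusted p below 0.05 and a log2 difference of at least 0.5). Among the named genes, the effect in low CHIR minus that in high CHIR was 2.87 for Lhfpl2, -2.86 for Meox2, -3.06 for Tmem100 and -1.87 for Fzd4 on the log2 scale. Lhfpl2 was higher in both QKO libraries in low CHIR and its mean was lower in QKO cells in high CHIR. Meox2, Tmem100 and Fzd4 were called higher in QKO cells in high CHIR, where control cells held little of them, and not in low CHIR, where control cells held much. What sets the difference between the doses was not tested.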

How the results depend on the processing

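The number of genes called in low CHIR depended strongly on the test, and 3 against 2 libraries limit what any of them can show. Against 1 gene higher and 0 lower without the block, the replicate block gave 15 and 1. No filter gave 4 higher, the 5 low CHIR libraries alone 0 and edgeR with the replicate block 4. DESeq2 gave 23 higher and 2 lower, and with the replicate block 78 and 12. Replicates 1 and 3 alone with the block gave 11 and 1, but not the same genes. Cnmd, Adora1, Serpine2 and Tmem150c were among those still called. Trim2 (limma adjusted p = 0.291), Dab1 (0.411), Ddr2 (0.4), 2610028E06Rik (0.115) and Tspan7 (0.254) were not, so the lower gene was another. Leaving out 1 library gave 0 to 4 higher without the block (0 without QKO replicate 1, 2 without control replicate 1, 4 without control replicate 3). With the block this gave 3 to 23 higher and 0 to 2 lower, and without any block that result was 1 and 0. DESeq2 gave no adjusted p for 5541 genes, and for 1232 with the block. The interaction's 3 higher and 17 lower became 38 and 98 with the replicate block and its lower count 9 with edgeR.

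Lef1 turned sign, from 0.13 to -0.027 with edgeR, -0.12 with edgeR and the block, -0.023 with DESeq2, -0.13 with DESeq2 and the block, -0.17 on replicates 1 and 3 with the block, and between -0.85 and 1.12 when 1 library was left out. Ddr2 ran from -0.36 (without QKO replicate 1) to 3.39. Of 340 values of single genes under an alternative, 276 kept direction and side of the threshold, 53 came to pass it, 2 no longer did (Cnmd, on the 5 libraries alone and without QKO replicate 1) and 9 turned sign. The cause was not tested.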
